A study of Mus musculus with 4 samples.

Results

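The 36 genes described here encode the core machinery of apoptosis, its inhibitors and triggers, and the p53 response, and were taken by symbol from a fixed list out of 37239 gene identifiers. All 36 were found, and 35 passed the filter on low values (at least 1 CPM in at least 2 libraries), among 14721 genes tested. The RNA came from whole mouse cochleae at postnatal day 8, of wild-type animals (Ikzf2+/+) and of littermates homozygous for the cello allele (Ikzf2cello/cello), with 2 libraries for each genotype. Ikzf2 encodes helios, an Ikaros-family transcription factor made by outer hair cells, and cello changes that protein. The labels call the libraries biological duplicates but do not say how many animals each holds. The p-values therefore rest on the spread between these 4 libraries within each genotype, which the fits combine with that of other genes. The comparison asks whether the cochlea of the mutant carries a transcript signature of cell death at this age.

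Apoptosis is carried out by caspases, proteases that are made as inactive precursors. In the intrinsic route, BH3-only proteins sense stress and relieve BAX and BAK of their BCL2-like inhibitors, after which cytochrome c leaves the mitochondrion and joins APAF1 and caspase 9 in the apoptosome. The extrinsic route starts at death receptors such as FAS and runs through FADD and caspase 8. The transcription factor p53 is controlled mainly through the stability of its protein, and in damaged hair cells of the cochlea it is known as one trigger of the intrinsic route. Many steps of the pathway, among them caspase cleavage, BAX insertion and p53 stabilisation, leave no trace in the level of their own transcript.

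The cochleae of both genotypes expressed almost the whole pathway, and no member differed past the threshold of the main test, limma. Of the 35 tested members, 0 passed an adjusted p of 0.05 in limma in either direction, with 0% of all genes called higher and 0% called lower. At an unadjusted p under 0.05 limma had 3 members (8.57%), against 10.9% of all genes. Of the count tests on recovered reads, edgeR called 0 members. DESeq2 called 1 of 34 members with a defined adjusted p, Phlda3, and 195 of 13579 such genes in all. The median log2 fold change (cello minus wild-type, on log2(CPM + 0.5)) was -0.06 over the members and -0.03 over all genes tested. Single members lay between -0.34 for Fadd and 0.57 for Phlda3 in limma over all 4 libraries. The smallest unadjusted p with a higher value in cello belonged to Phlda3, a p53 target that restrains AKT signalling, and that with a lower value to Bmf, a BH3-only gene linked to the cytoskeleton.

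Several members are direct p53 targets, and the DNA that p53 reads is shown for those with a match near the start site, since such genes are widely used as readouts of p53 activity. A p53 response element consists of 2 half-sites of 10 bases, and only pairs with no bases between them were searched for. RefSeq promoter entries (GRCm38.p6) existed for 32 of the 36 members, and the 250 bases before each start were searched for the p53 consensus, allowing up to 3 mismatches outside the core C and G of each half-site. The consensus reads the same on both strands. A match was found for 4 of the 32 members and for 1.36% of 27025 genes with an entry. The capitals mark the 20 bases of the match, and the flanks of up to 40 bases stop before any annotated exon.
Cdkn1a, chr17:29090888-29090975, plus strand, 1 mismatch: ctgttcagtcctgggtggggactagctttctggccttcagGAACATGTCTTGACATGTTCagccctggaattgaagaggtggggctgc
Ccng1, chr11:40755422-40755521, minus strand, 1 mismatch: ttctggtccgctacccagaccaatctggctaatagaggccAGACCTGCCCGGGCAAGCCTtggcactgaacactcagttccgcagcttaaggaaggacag
Bbc3, chr7:16309446-16309545, plus strand, 3 mismatches: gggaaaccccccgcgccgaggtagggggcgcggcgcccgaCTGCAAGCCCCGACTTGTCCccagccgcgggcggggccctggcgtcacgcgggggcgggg
Trp53, chr11:69580256-69580343, plus strand, 3 mismatches: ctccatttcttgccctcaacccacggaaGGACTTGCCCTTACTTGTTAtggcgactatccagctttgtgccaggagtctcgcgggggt
These matches are descriptions of the letters and say nothing of whether p53 bound there in these cochleae. The other members either had no match in this window or, for Bik, Pmaip1, Tnfrsf10b and Trp53inp1, no entry.

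The libraries held 42152616 to 49719984 counted alignments, of which 70.0% to 72.8% lay in genes. The members were read deeply, from 62 reads for Fas in cello replicate 2 to 7728 reads for Cdkn1a in wild-type replicate 1 among those tested. All markers of hair cells, supporting cells, neurons, Schwann cells and macrophages looked for were above 0 in every library. In whole tissue, fewer cells of a type and less RNA per cell cannot be told apart. Summed CPM of 7 outer hair cell markers were 276 and 269 in wild-type against 139 and 127 in cello, and of 9 Schwann cell markers 1111 and 2686 against 3926 and 4769. Of the outer hair cell sum, Ocm alone made up 116 and 108 CPM in wild-type and 33.9 and 16.6 CPM in cello. A list of 9 hair cell markers summed to 452 and 459 CPM in wild-type and 408 and 384 CPM in cello. Ikzf2 itself measured 22.9 and 18.5 CPM in the wild-type libraries and 17.7 and 16.9 CPM in the cello libraries (adjusted p = 0.545 in limma), which does not check the genotype labels.

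**Figure D1:**
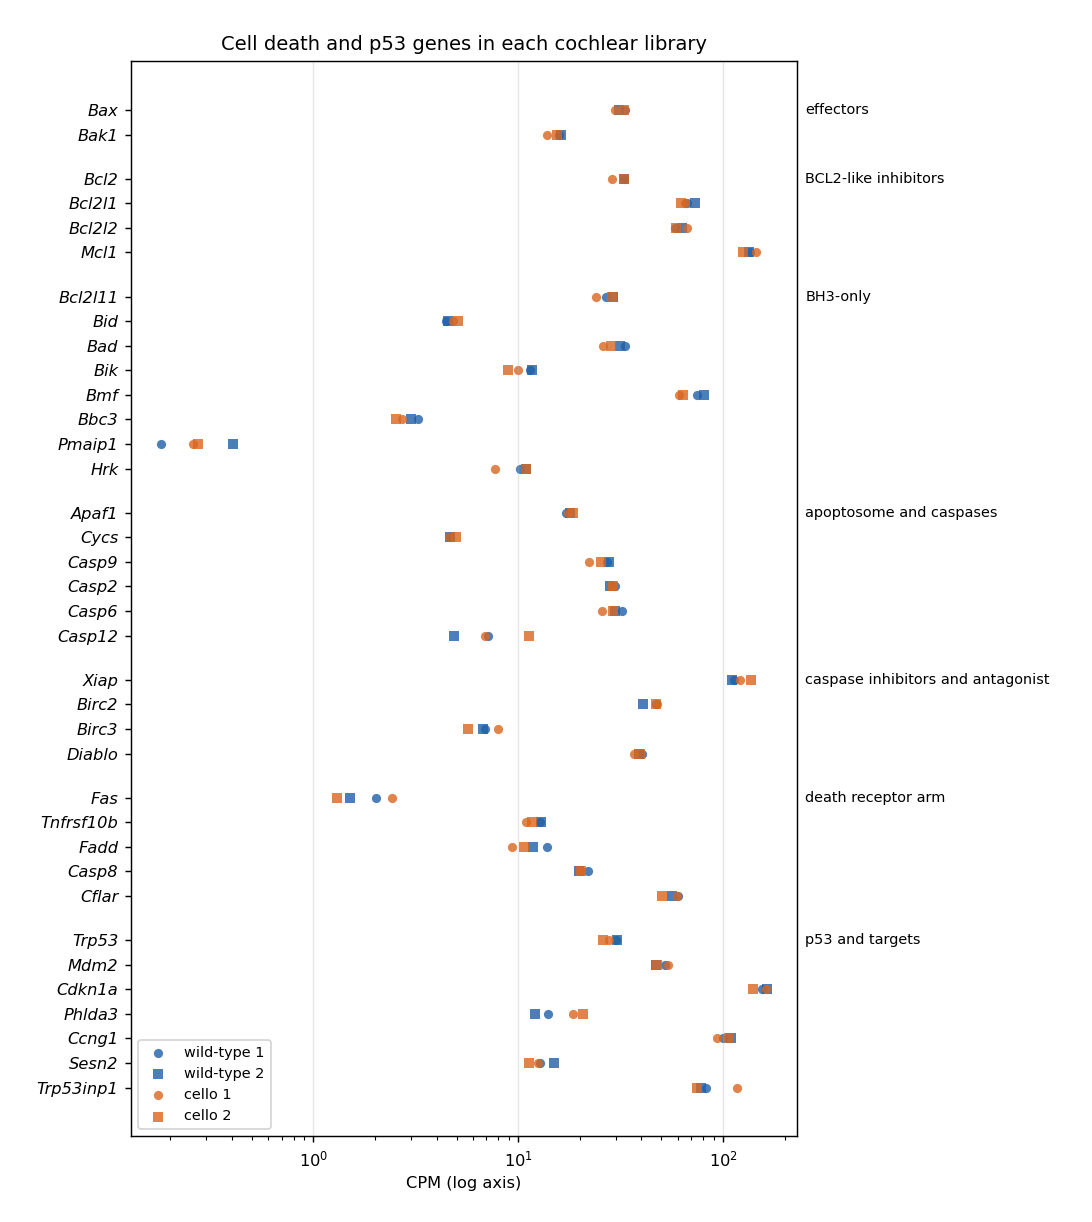
CPM of the 36 genes on a log axis, 1 row per gene grouped by role, with blue for wild-type, orange for cello, circles for replicate 1 and squares for replicate 2. Within most rows the 4 points lie close together, while the genes span from 0.181 CPM for Pmaip1 to 164 CPM for Cdkn1a.

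Levels between genes can be compared only per length, here as CPM per kilobase of annotated exon, averaged over the 4 libraries. Cdkn1a (43.7), Mcl1 (39.4), Ccng1 (29.2) and Bax (20.2) stood at the top of the 36 genes on this scale. The ranges of Cdkn1a (39.3 to 46.1) and Mcl1 (36.4 to 42.3) overlapped across libraries, while those of Ccng1 (26.7 to 31.1) and Bax (18.9 to 21.1) were separate from each other and from both. At the bottom stood the BH3-only gene Pmaip1 (0.102) and the death receptor gene Fas (0.883).

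Bax and Bak1 encode the effectors that open the outer mitochondrial membrane. Bax measured 33.2 and 31.0 CPM in the wild-type libraries and 29.8 and 33.0 CPM in the cello libraries. The genotypes overlapped, and its log2 fold change of -0.03 had a 95% interval from -0.28 to 0.21, so a change of 1.5-fold in either direction lay outside it. Bak1 measured 15.8 and 16.2 CPM in the wild-type libraries and 13.9 and 15.5 CPM in the cello libraries. Both cello libraries were below both wild-type libraries, by a small margin (log2 fold change -0.12, SE 0.11, adjusted p = 0.719 in limma). Other genes cover 18.2% of the exon bases of Bak1, and since the strand setting of the counting is not given, reads of the overlap are uncertain.

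The 4 BCL2-like inhibitors, which hold the effectors in check, were at near-equal levels in both genotypes. Mcl1, a short-lived survival factor, measured 135 and 133 CPM in the wild-type libraries and 145 and 125 CPM in the cello libraries. The cello libraries lay on either side of the wild-type ones, and the 95% interval of the log2 fold change ran from -0.25 to 0.25. Bcl2, on chromosome 1 at 36.9 Mb from Ikzf2, measured 32.7 and 32.8 CPM in the wild-type libraries. In the cello libraries it measured 28.7 and 33.0 CPM, again overlapping. Bcl2l1, which encodes BCL-XL, measured 66.4 and 73.3 CPM in the wild-type libraries and 65.3 and 62.2 CPM in the cello libraries, where both libraries were lower (log2 fold change -0.13, SE 0.09, adjusted p = 0.601 in limma). Bcl2l2, which encodes BCL-W, had a log2 fold change of 0.05, with 13.3% of its exon bases shared with Gm20521 on the same strand. The CPM ratio of Bax to Bcl2, a common index of the balance between killer and inhibitor, was 1.01 and 0.945 in wild-type and 1.04 and 1.001 in cello. That of Bax to Bcl2l1 was 0.501 and 0.423 against 0.456 and 0.531. Neither ratio separated the genotypes.

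The BH3-only genes, which encode the sensors that start the intrinsic route, had lower values in cello for 6 of the 7 tested. Their median log2 fold change was -0.22, against -0.03 over all genes, of which 56.6% had values below 0. Over all genes tested 0 of the 7 passed, and 2 had lower values at an unadjusted p under 0.05 in limma, as did 6.47% of all genes. Bmf (chromosome 2, 118528757 to 118549687, minus strand) measured 75.1 and 80.4 CPM in the wild-type libraries and 60.8 and 63.6 CPM in the cello libraries. Both cello libraries were below both wild-type libraries, with a gap larger than the spread within either genotype. Its log2 fold change was -0.32 (SE 0.08), with an unadjusted p of 0.010 and an adjusted p of 0.419 in limma.

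Bad, whose protein is switched off by survival kinases, lies on chromosome 19 (6941861 to 6951899, plus strand). It measured 33.2 and 31.4 CPM in the wild-type libraries and 25.9 and 28.3 CPM in the cello libraries. These groups did not overlap either (log2 fold change -0.25, SE 0.09, unadjusted p = 0.043, adjusted p = 0.452 in limma). The unadjusted p was above 0.05 with TMM (0.072), median-of-ratios (0.064), edgeR (0.070), DESeq2 (0.121), the replicate block (0.061) and when any library other than cello replicate 2 was left out (0.108 to 0.221). Of the exon bases of Bad, 20.5% are shared with Gpr137 on the other strand. Supporting cell markers were lower in the same libraries, with summed CPM of 2700 and 2791 in wild-type and 2269 and 2147 in cello, as were the outer hair cell markers given above. Their part in the values of Bmf and Bad was not tested.

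Bbc3 and Pmaip1 encode PUMA and NOXA, the BH3-only proteins that p53 induces most directly. Bbc3, with the 3-mismatch site shown above, measured 3.26 and 3.01 CPM in the wild-type libraries and 2.71 and 2.53 CPM in the cello libraries, where both libraries were lower (log2 fold change -0.22, SE 0.17, adjusted p = 0.655 in limma). Its 95% interval in limma ran from -0.67 to 0.22, which leaves a rise above 1.17-fold outside that interval. DESeq2, on 115 to 162 recovered reads per library, gave a log2 fold change of -0.22 with a larger SE of 0.34. Pmaip1 was close to the limit of detection and was not tested. The wild-type libraries held 0.181 CPM (9 reads) and 0.403 CPM (17 reads), the cello libraries 0.259 CPM (11 reads) and 0.274 CPM (13 reads). The exact 95% Poisson intervals of the wild-type libraries, 0.0828 to 0.344 and 0.235 to 0.646 CPM, overlap each other and hold both cello values between them. These intervals cover counting error only, not the spread between libraries, and allow no statement on a difference.

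Bcl2l11, which encodes BIM, the sensor of lost trophic support, measured 26.7 and 29.0 CPM in the wild-type libraries and 24.1 and 28.6 CPM in the cello libraries, with overlapping groups. Hrk, a BH3-only gene of neurons, spread more within cello, at 7.70 and 10.9 CPM, than within wild-type, at 10.2 and 11.0 CPM. Bik had a log2 fold change of -0.28 and Bid, which links death receptors to mitochondria, one of 0.12. For Bik and Bid the genotypes did not overlap, but neither passed (adjusted p = 0.488 and 0.782 in limma). Bid shares 17.7% of its exon bases with Bcl2l13 on the other strand. Summed over the 8 BH3-only genes, 165 and 171 CPM in wild-type stood against 136 and 148 CPM in cello, a sum in which Bmf alone made up the largest share.

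**Figure D2:**
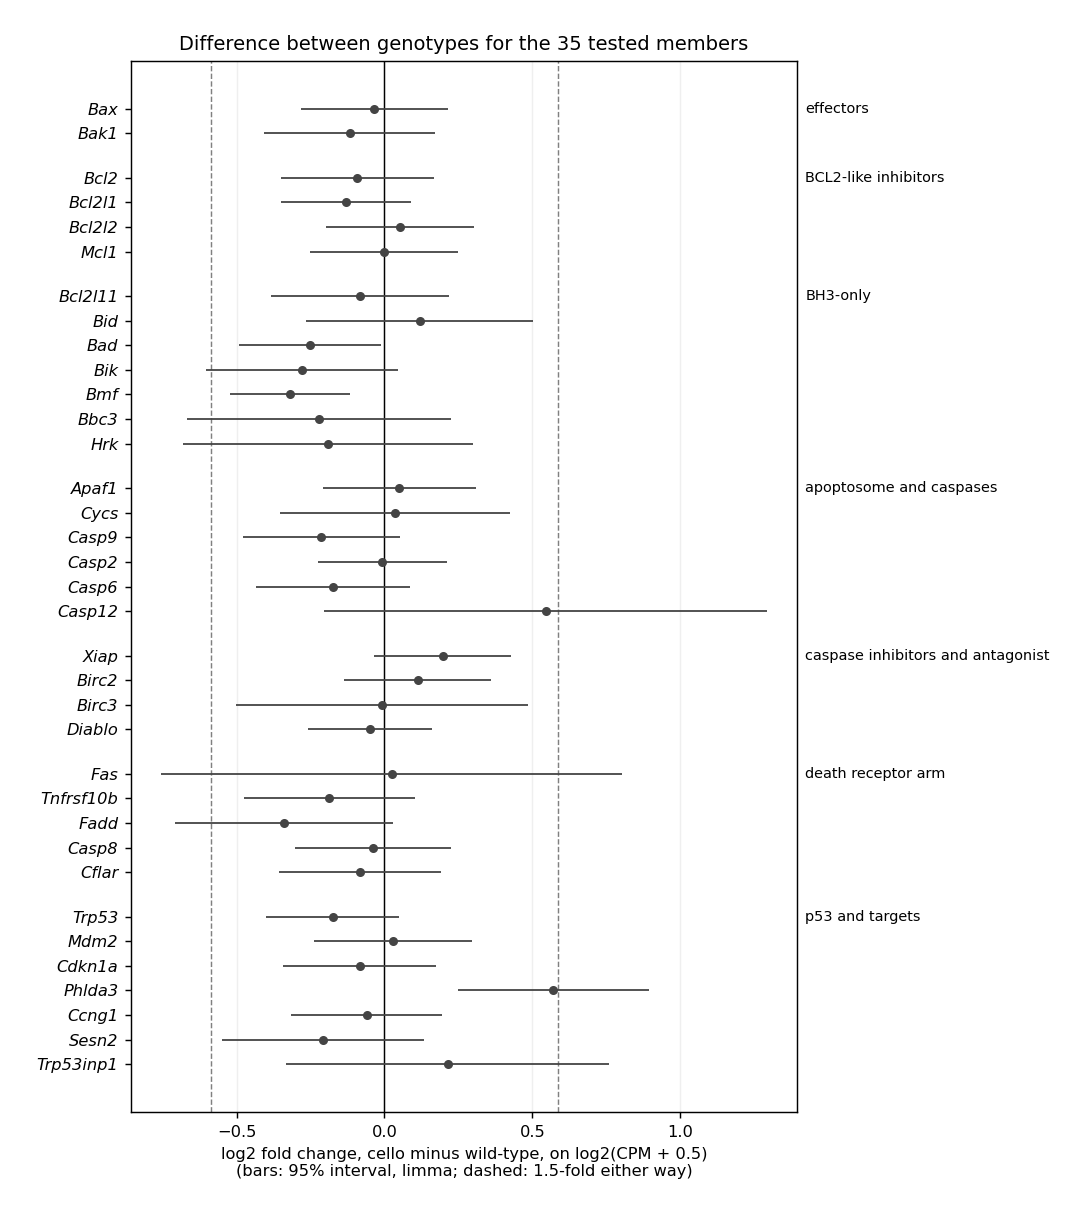
Log2 fold change (cello minus wild-type, on log2(CPM + 0.5)) of the 35 tested genes with 95% intervals from limma, grouped by role, with dashed lines at 1.5-fold. Of the 35 intervals, 27 lie wholly between the dashed lines, and the intervals of Phlda3, Bmf and Bad do not cross 0.

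The caspases and the apoptosome showed no shared direction. Apaf1, the scaffold of the apoptosome, measured 17.0 and 17.8 CPM in the wild-type libraries and 17.6 and 18.6 CPM in the cello libraries. Casp9, its initiator caspase, measured 27.2 and 27.8 CPM in the wild-type libraries and 22.1 and 25.3 CPM in the cello libraries, below both wild-type libraries (log2 fold change -0.21, SE 0.10, adjusted p = 0.510 in limma). Casp6, an effector caspase, was likewise lower in both cello libraries (-0.17), and Casp2 differed by -0.01 with an interval from -0.22 to 0.21. Cycs, which encodes somatic cytochrome c, differed by 0.04, and since the mouse genome is known to hold many processed copies of it, its level is uncertain.

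Casp12, a caspase of the endoplasmic reticulum in rodents, varied within both genotypes. It measured 7.10 and 4.86 CPM in the wild-type libraries and 6.85 and 11.3 CPM in the cello libraries. Cello replicate 2 was high, while cello replicate 1 lay between the wild-type libraries. Its log2 fold change of 0.54 (SE 0.29) did not pass (adjusted p = 0.540 in limma), and it was 0.20 without cello replicate 2 and 0.89 without cello replicate 1 (unadjusted p = 0.024).

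Among the caspase inhibitors, Xiap, which blocks caspases directly, measured 113 and 111 CPM in the wild-type libraries and 121 and 137 CPM in the cello libraries. Both cello libraries were higher, by less than 1.35-fold at the upper end of the interval (log2 fold change 0.20, SE 0.09, unadjusted p = 0.080, adjusted p = 0.491 in limma). The unadjusted p was below 0.05 with TMM (0.042), median-of-ratios (0.039), edgeR (0.046) and DESeq2 (0.033), and without cello replicate 1 (0.018). Birc2 and Birc3, neighbouring genes of the ubiquitin ligases cIAP1 and cIAP2, differed by 0.11 and -0.01. Diablo, whose product SMAC neutralises these inhibitors, differed by -0.05, with 23.5% of its exon bases shared with other genes. The CPM ratio of Diablo to Xiap was 0.353 and 0.351 in wild-type and 0.306 and 0.288 in cello.

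The death receptor arm showed no member past the threshold. Fas was low throughout, with 2.03 and 1.52 CPM in wild-type libraries against 2.43 and 1.31 CPM in cello ones, so that the cello libraries were both the highest and the lowest. Its interval was correspondingly wide, from -0.75 to 0.80 on the log2 scale. Casp8, the initiator of this arm, measured 22.0 and 19.7 CPM in the wild-type libraries and 20.3 and 20.2 CPM in the cello libraries. Fadd, the adaptor between receptor and caspase, had the lowest value of the members in limma over all 4 libraries (-0.34, SE 0.14, unadjusted p = 0.064, adjusted p = 0.475 in limma), with 13.8 and 11.8 CPM in wild-type and 9.33 and 10.7 CPM in cello. Without wild-type replicate 1 it was -0.23, with Bmf lowest at -0.37, and without cello replicate 1 it was -0.24, with Bik lowest at -0.36. Tnfrsf10b, the mouse receptor for TRAIL, was also lower in both cello libraries (-0.19). Cflar, which encodes the caspase 8 decoy FLIP, differed by -0.08. Casp8 and Cflar lie 10.7 and 10.8 Mb from Ikzf2 on chromosome 1.

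In p53 and its feedback loop no member passed the threshold. Trp53, the gene of p53, measured 30.0 and 30.5 CPM in the wild-type libraries and 27.7 and 25.9 CPM in the cello libraries, lower in both libraries (log2 fold change -0.18, SE 0.09, adjusted p = 0.516 in limma). Mdm2, the ubiquitin ligase that degrades p53 and is itself induced by it, measured 52.3 and 46.9 CPM in the wild-type libraries and 53.9 and 47.4 CPM in the cello libraries. Cdkn1a, which encodes the cell cycle inhibitor p21 and carries the closest match shown above together with Ccng1, measured 155 and 164 CPM in the wild-type libraries and 162 and 140 CPM in the cello libraries. Ccng1, a cyclin G gene and standard p53 reporter, measured 100.1 and 109 CPM in the wild-type libraries and 93.9 and 107 CPM in the cello libraries. For Mdm2, Cdkn1a and Ccng1 the genotypes overlapped, and the upper ends of their 95% intervals in limma were 1.23-fold, 1.13-fold and 1.14-fold. The CPM ratio of Mdm2 to Trp53 was 1.74 and 1.54 for the wild-type libraries against 1.95 and 1.83 for the cello ones, and that of Cdkn1a to Trp53 was 5.17 and 5.37 against 5.87 and 5.39. Both ratios were higher in both cello libraries, the latter by a narrow margin, with Trp53 lower there, and neither was tested.

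Phlda3 had the largest log2 fold change of the members in limma over all 4 libraries. Casp12 exceeded it in edgeR (0.64 against 0.63) and DESeq2 (0.64 against 0.63) and without wild-type replicate 1 (0.80 against 0.67) or cello replicate 1 (0.89 against 0.65), and Trp53inp1 did without cello replicate 2 (0.54 against 0.49). Phlda3 lies on chromosome 1 (135766119 to 135769136, plus strand), 66.1 Mb from Ikzf2, and measured 14.0 and 12.1 CPM in the wild-type libraries and 18.5 and 20.8 CPM in the cello libraries. Both cello libraries were higher, with a gap larger than the spread within either genotype. The log2 fold change was 0.57 (SE 0.13), a ratio of 1.503 between means, with an unadjusted p of 0.0059 and an adjusted p of 0.419 in limma. The count test DESeq2 on recovered reads gave it an adjusted p of 0.046, the only member that passed there. That test called 0.781% of the 14721 genes tested higher, counting those left undefined as not called. With edgeR the adjusted p was 0.451. Schwann cell and neuron markers were higher in the same libraries, the neuron markers with summed CPM of 160 and 520 in wild-type and 705 and 807 in cello. Within wild-type these markers were lower in replicate 1, while Phlda3 was higher there. Within cello the markers of both types and Phlda3 were all higher in replicate 2. The part of these markers in the difference of Phlda3 was not tested.

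Sesn2 and Trp53inp1 are the remaining p53 targets of the list. Sesn2, a stress-induced regulator of mTORC1, was lower in both cello libraries (-0.21, SE 0.13, adjusted p = 0.590 in limma). Trp53inp1, a p53 cofactor gene, measured 82.8 and 78.0 CPM in the wild-type libraries and 117 and 74.5 CPM in the cello libraries. Cello replicate 1 was high and cello replicate 2 lower than both wild-type libraries, so the log2 fold change of 0.21 became -0.11 without cello replicate 1. Osteoblast markers were high in the same library, with summed CPM of 2445 there against 1006 to 1039 in wild-type and 563 in cello replicate 2. Neutrophil and marrow markers were high there too, at 88.5 against 20.2 and 41.7 in wild-type and 8.17 in cello replicate 2. The part of either marker set in the level of Trp53inp1 was not tested.

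**Figure D3:**
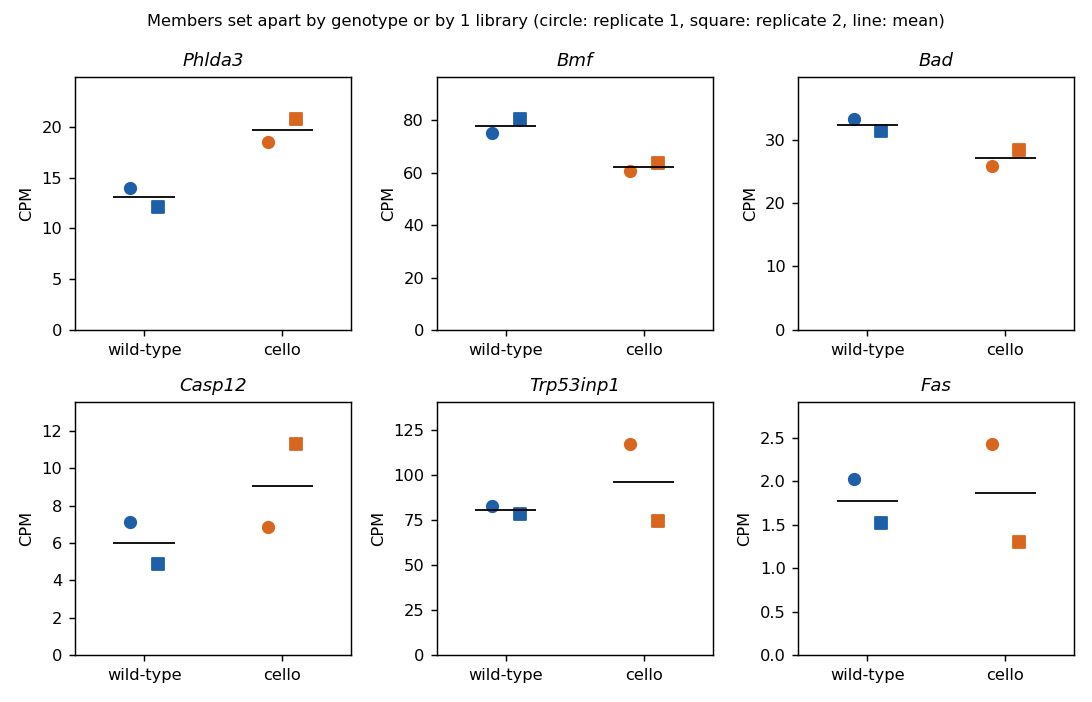
CPM in each library of Phlda3, Bmf and Bad, which had an unadjusted p under 0.05, and of Casp12, Trp53inp1 and Fas, whose cello libraries differ by over 1.5 times, with lines at the mean of each genotype. The genotypes are separate in the upper row and overlap in the lower row.

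The whole list was set beside all genes tested. An unadjusted p under 0.05 in limma was found for 3 of 35 members (8.57%), 1 higher and 2 lower, against 10.9% of all genes, 4.42% higher and 6.47% lower. The libraries of the genotypes did not overlap for 15 members, 3 higher and 12 lower. These are 8.57% and 34.3% of the members, against 16.9% and 28.7% of all genes. Of the members, 24 had values below 0 and 11 above (68.6% below, against 56.6% of all genes). The split moved with the scaling for members and all genes alike. With TMM rescaling, 19 members were below and 16 above, and 48.5% of all genes were below. The 95% interval lay within 1.5-fold for 27 of 35 members, against 63.7% of all genes, and within 2-fold for 34, against 88.7%. The exception to the latter was Casp12.

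**Figure D4:**
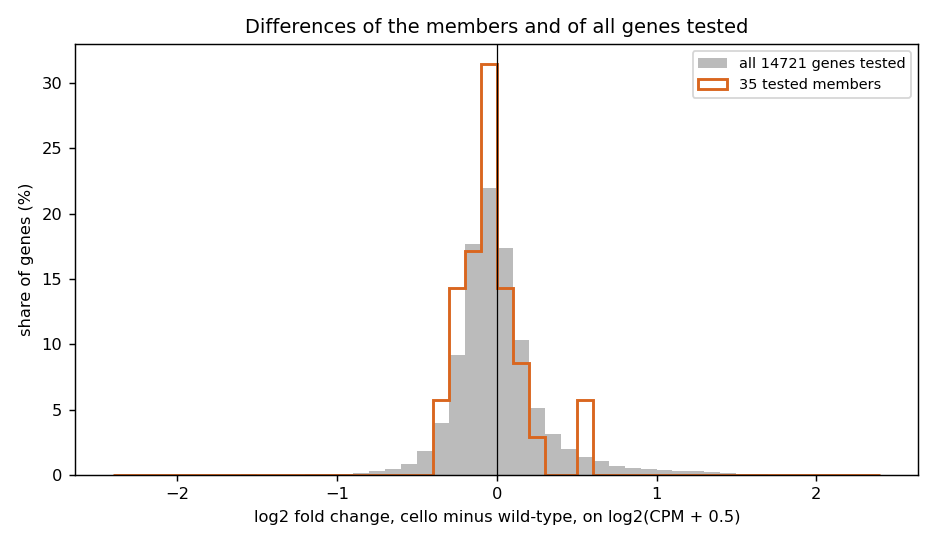
Share of genes (%) in bins of 0.1 of the log2 fold change (cello minus wild-type, on log2(CPM + 0.5)), for all 14721 genes tested (grey) and the 35 tested members (orange line). The members lie within the central mass of all genes, and the separate orange bin near 0.5 holds Casp12 and Phlda3.

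Further genes of cell death were read from 7 lists of 112 genes outside the members, of which 101 were tested. An adjusted p of 0.05 was passed by 0 of them in limma and edgeR and by 0 of 90 in DESeq2, which left 11 undefined. In limma 9 (8.91%) had an unadjusted p under 0.05, 4 higher and 5 lower, against 10.9% of all genes, 4.42% higher and 6.47% lower. Among 28 tested other p53 targets, 13 had values above 0 and 15 below. Plk2, a polo-like kinase gene, had the smallest p among them, at 23.4 and 22.6 CPM in wild-type and 29.9 and 31.2 CPM in cello (log2 fold change 0.40, SE 0.09, unadjusted p = 0.0053, adjusted p = 0.419 in limma). Pml and Perp, a gene of desmosomes as well as of p53-dependent death, followed with log2 fold changes of -0.29 and -0.32. Of 8 tested p53 regulators, Mdm4, an inhibitor of p53, had the smallest p (log2 fold change 0.36, unadjusted p = 0.136 in limma) and varied within wild-type, at 138 and 92.2 CPM. Hipk2 and Usp7 came next, with log2 fold changes of -0.14 and 0.09.

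The other intrinsic genes had 6 values above 0 and 15 below (71.4% below, against 56.6% of all genes). The share over all genes was 48.5% with TMM rescaling. Bcl2l14, Sept4 and Naip5 had the smallest p, with log2 fold changes of -0.41, -0.32 and 0.55, and Naip5 belongs to a family of near-identical copies.

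Among the extrinsic and necroptosis genes, 6 stood above 0 and 9 below (60% below, against 56.6% of all genes). Tnfsf10, the gene of TRAIL, Ngfr, the p75 neurotrophin receptor of Schwann cells and neurons, and the necroptosis kinase gene Ripk3 had the smallest p, and 0 passed. Their log2 fold changes were 0.42, 1.12 and 0.31. Ngfr varied 3.08-fold within wild-type, at 7.94 and 24.5 CPM, and stood at 24.9 and 38.9 CPM in cello, an order shared with the Schwann cell markers, whose part in it was not tested. The ligand genes Fasl and Tnf were at or below 0.188 CPM in every library.

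Stress, inflammatory and clearance genes likewise held none past the adjusted threshold in limma. In the integrated stress response list, 6 of 10 stood above 0, with Asns, asparagine synthetase, at 0.54, the chaperone gene Hspa5 at -0.22 and Ppp1r15a at 0.20. Of 8 genes of inflammatory caspases and pyroptosis, 3 were not tested. The 5 tested had values above 0, while 56.6% of all genes were below 0. The 5 were led by the pore-forming gasdermin gene Gsdme (0.39), Casp1 (0.43) and Pycard (0.10), with Casp1 at only 0.901 to 1.65 CPM. Gsdmd and Il18 stood near 0, at 0.03 each. Of 14 tested genes for the clearance of dying cells, 7 stood above 0 and 7 below. Pros1, a ligand of clearance receptors, had a value of 0.34, and the receptor gene Tyro3 (-0.24) and the bridging protein gene Mfge8 (-0.22) had lower ones. Summed CPM of 8 macrophage markers were 193 and 183 in wild-type and 185 and 180 in cello.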

How the data were processed

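Dissected whole cochleae gave TruSeq libraries, per the labels' protocols. The authors deposited CPM per gene, with the sum over genes and 5 entries without a gene as the base. Those entries held the 27.2% to 30.0% of alignments outside single genes and were left out. TopHat and the build GRCm38 are named in the submitters' processing notes. No source used here gives the counter, its strand setting or its annotation. All values were whole multiples of the smallest (100%, tolerance 0.001 of a read), so reads were recovered for the count tests. Symbols came from a table matching 36504 of 37239 identifiers, positions and exon lengths from GENCODE M21 (GRCm38), promoters from RefSeq.

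The 14721 genes reaching 1 CPM in 2 or more libraries were transformed as log2(CPM + 0.5) and compared by group with limma 3.58.1 (R 4.3.3), using a trended variance and two-sided p-values adjusted over all of them (Benjamini-Hochberg). Fold changes on this scale understate those of low genes. An exact permutation test of 2 against 2 libraries has a smallest p of 0.333. Alternatives were other pseudocounts, filters and scalings, a replicate block, edgeR 4.0.16, DESeq2 1.42.0 and leaving out each library. Values per library were given by rule for members with an unadjusted p under 0.05, called by any fit, varying over 1.5 times within a genotype, or central to their role. Up to 3 genes with the smallest p were named from each further list. Members and lists were chosen with earlier results of these data known. Some genes of the further lists are counted in them and not reported here by themselves.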

Additional observations from a re-analysis of the deposited data

How the results depend on the processing

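Members called stayed at 0 in all alternatives except DESeq2, which called 1 (Phlda3, log2 fold change 0.63, adjusted p = 0.046) and 195 genes in all (115 higher, 80 lower, 1142 adjusted p undefined). Without wild-type replicate 2, 90 genes were called in limma, all higher and no member among them, and without any other library 0 were. At an unadjusted p under 0.05, limma had 1603 genes and edgeR, which also called 0 after adjustment, had 1463.

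The median of the members was -0.0832 at a mean CPM of at least 5, -0.0191 with TMM, -0.0208 with median-of-ratios, -0.0173 with edgeR and -0.0195 with DESeq2. In the same order, the median over all genes was -0.0441, 0.0069, 0.0053, 0.0107 and 0.0089. When 1 library was left out, the median of the members ranged from -0.0942 to -0.0391, and that of all genes from -0.0427 to -0.0199. The number of members whose genotypes did not overlap ranged from 22 to 29 of 35 without 1 library, against 65.7% to 80.4% of all genes, since a lone library makes overlap rarer by construction.

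Of 451 member values under alternatives, 410 kept their direction without a call, and 40 changed sign. With TMM, Bax was 0.0064, Casp8 0.0013, Casp2 0.033, Birc3 0.029 and Mcl1 0.039. With median-of-ratios, Bax was 0.0046, Casp2 0.031, Birc3 0.027 and Mcl1 0.037. In the order Bax, Casp2, Birc3 and Mcl1, edgeR gave 0.0070, 0.032, 0.049 and 0.043, and DESeq2 gave 0.0051, 0.031, 0.048 and 0.042. The cause was not tested. Leaving out 1 library gave ranges of -0.107 to 0.039 for Bax, -0.115 to 0.038 for Casp8, -0.043 to 0.028 for Casp2, -0.234 to 0.216 for Birc3, -0.109 to 0.106 for Mcl1, -0.040 to 0.145 for Bcl2l2, -0.063 to 0.121 for Mdm2, -0.155 to 0.036 for Ccng1, -0.324 to 0.373 for Fas, -0.205 to 0.038 for Bcl2l11, -0.109 to 0.537 for Trp53inp1, -0.431 to 0.048 for Hrk, -0.191 to 0.0080 for Bcl2, -0.193 to 0.024 for Cdkn1a, -0.205 to 0.038 for Cflar -0.022 to 0.094 for Cycs and, with no change of sign, 0.204 to 0.885 for Casp12. With the replicate number as a block, 0 members and 0 genes were called, and the median of the members was -0.060. Same-numbered libraries had a correlation of deviations of 0.133 over 2 pairs, which does not establish a pairing. With 2 libraries per genotype, small changes, or changes in a few cells of the cochlea, may pass undetected. Large changes did not pass the main test either. The outer hair cell markers Ocm and Slc26a5 had log2 fold changes of -2.21 and -1.18, each with an adjusted p of 0.419 in limma. A count of 0 members called is therefore no measure of how large a change was absent.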
